A study of Mus musculus with 12 samples.

Results

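The transcripts of 2 chaperonins were followed in brain and liver of aged mice after periodic heat stress. The 10 genes encode the 8 subunits of the cytosolic chaperonin TRiC (Tcp1, Cct2, Cct3, Cct4, Cct5, Cct6a, Cct7 and Cct8) and the mitochondrial pair Hspd1 and Hspe1. Their rows were found by gene symbol, and all 10 were present among the 25239 symbols of the count table. Libraries came from male C57BL6/J wild-type mice aged 24 months. The heat stress group had been held at 40 °C and 60% humidity for 3 hours a day on 15 days, and the control group had not. Each of the 4 groups (brain control, brain heat stress, liver control and liver heat stress) holds 3 libraries, from a study with 3 mice a group. The labels name the tissue pieces only as brain or liver, with no region of the brain or lobe of the liver, and no group carries a genetic change.

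TRiC, also called CCT, is a barrel of stacked rings in the cytosol. Each ring holds a single copy of each subunit, and newly made actin, tubulin and many proteins with WD40 repeats fold inside its closed cavity, driven by ATP. Prefoldin hands unfolded actin and tubulin to it, and phosducin-like proteins assist its cycle. Hspd1 (Hsp60) forms the ring of the mitochondrial matrix that folds imported proteins, and Hspe1 (Hsp10) is the lid that closes it. In liver, whose hepatocytes are dense in mitochondria, the matrix machinery serves the enzymes of the urea cycle and of fatty acid oxidation. Heat shock factor, which binds repeated NGAAN units, is the textbook activator of the mitochondrial pair.

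Hspd1 and Hspe1 lie head to head on chromosome 1, and their promoter is shown because the results below turn on this pair. In GENCODE M21 (GRCm38), Hspe1 spans chr1:55088132-55091307 on the plus strand and Hspd1 spans chr1:55077835-55088243 on the minus strand, with 112 exonic bases in common. The heat shock element was searched on both strands as TTCNNGAA or GAANNTTC, and in a longer form in which a further TTC or GAA follows the match after another NN, in the RefSeq windows (GRCm38.p6) from 250 bases before to 50 after each start. Windows were found for 9 of the 10 members (not Cct4). The shared stretch below, chr1:55088053-55088082, holds 3 overlapping matches, in capitals. The capitals begin 89 bases before the start of Hspe1 and, read on the other strand, 144 bases before a start of Hspd1. An Hspd1 transcript that starts farther upstream carries this stretch in its untranslated first exon.
Hspe1 strand: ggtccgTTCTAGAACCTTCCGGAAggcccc
Hspd1 strand: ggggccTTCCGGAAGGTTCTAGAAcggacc

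The longer motif is found in 0.603% of all 32851 windows, and among the members only in the windows of this pair. The shorter motif is found in 15.1% of all windows. Among TRiC genes with a window, Cct2 and Cct5 hold it once before a start, and Cct6a holds it 24 bases after its start. The stretches of Cct2 (chr10:117063399-117063428, minus strand, in an intron of the gene) and Cct5 (chr15:31601862-31601891, minus strand, in an exon of the divergent neighbour Fam173b) are shown to set the single match against the run of 3. A match is a run of letters, not a measured binding site.
Cct2: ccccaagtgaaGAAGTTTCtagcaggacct
Cct5: acagcggccgaTTCCAGAAgctactctgcg

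Library totals ranged from 10466198 to 15609040 reads assigned to genes, and the members had between 787 (Hspe1 in brain) and 6540 (Hspd1 in liver) reads in each library. The summed CPM (counts scaled to library size) of 8 neuron markers were 6830 to 9299 in brain and 15.3 to 34.2 in liver, and those of 8 hepatocyte markers were 85552 to 133736 in liver and lower in brain, at 1166 to 2327 in controls and 229.9 to 1073 under heat stress, with no marker of either list at 0 in its own tissue. Liver control 1 and liver heat stress 2 carried skeletal muscle transcripts, with a marker sum of 340.7 and 1965 CPM against 1.03 to 6.47 in the other liver libraries. In brain, 7 of 8 markers of striatal medium spiny neurons were higher in the heat stress group at an unadjusted p under 0.05, with sums of 572.8 to 1339 against 362.6 to 608.6 CPM in controls. The choroid plexus sum was 32.4 to 72.5 against 86.1 to 160.2 CPM. Only 3 of the 8 hepatocyte markers were tested in brain. Of these, 1 was lower under heat stress at that p, and their median log2 fold change was 0.70, opposite to the fall of the sum. In liver, the T cell marker sum was 2.39 to 5.41 CPM in controls and 6.55 to 10.1 CPM under heat stress, with 2 of 5 tested markers higher at that p. The part of the brain and T cell markers in the results was not tested. Liver calls of the members are also given without the libraries with muscle transcripts, and those of the partner lists are not. Whether a transcript is lower because fewer cells made it or because each cell held less of it cannot be told apart in these tissue extracts.

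**Figure D1:**
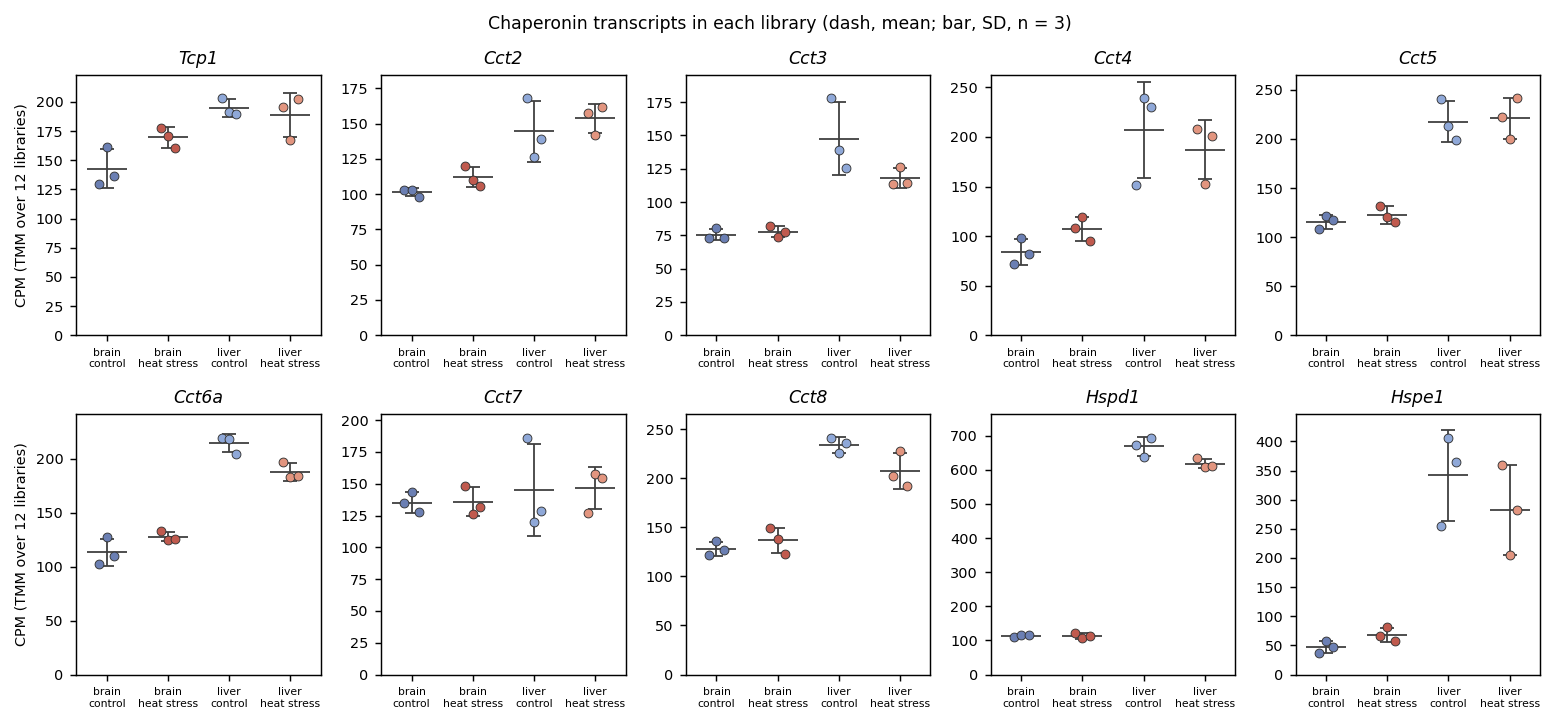
Each panel shows a member's level in CPM, scaled by TMM over all 12 libraries, for the 4 groups (points, libraries; dash, mean; bar, SD, n = 3). Hspd1 lay between 105.7 and 122.1 CPM in brain and between 609.3 and 694.7 CPM in liver, and the heat stress and control points of a tissue overlapped for most members.

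In brain, the question was whether 15 days of heat left the chaperonins changed. All 10 members had a fitted log2 fold change above 0, from 0.01 for Hspd1 to 0.54 for Hspe1, and none was called at an adjusted p under 0.05 (edgeR quasi-likelihood test, Benjamini-Hochberg over 14806 genes, background 0% called). The median of the 8 TRiC subunits was 0.13 and that of all genes -0.0030, on the log2 scale. At an unadjusted p under 0.05, 2 of 10 were higher (Cct4 and Hspe1), where 10.0% of all genes were. After the correction for transcript length and GC content described below, 7 of 10 were above 0, no member had an unadjusted p under 0.05 and the TRiC median was 0.05. DESeq2 called no member either, with a lowest adjusted p of 0.0618 for Hspe1, whereas it called 604 of 20018 genes (312 higher and 292 lower).

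Hspe1 had the largest fitted difference in brain of the 10 without the length and GC correction. With it, Hspe1 was at 0.24 and Cct4 at 0.25. Its CPM, scaled within brain, was 54.0, 84.6 and 69.05 in the controls and 96.7, 119.0 and 85.0 in the heat stress group. The groups did not overlap, but control 2 and heat stress 3 were nearly equal. The fitted log2 fold change was 0.54 with a standard error of 0.18 (95% interval 0.13 to 0.94, adjusted p = 0.179). Hspd1, its partner in the folding ring, stood at 159.9, 169.7 and 167.3 CPM in the controls and 179.8, 155.7 and 165.4 CPM in the heat stress group. These values interleave, and the interval of the log2 fold change, -0.23 to 0.25, includes 0.

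Among TRiC subunits in brain, Cct4 had the largest fitted change. Cct4, which lies in the ring as the delta subunit, was at 105.2, 144.3 and 118.2 CPM in the controls and 159.7, 175.2 and 139.0 CPM under heat stress. The highest control was above the lowest heat stress library, and the log2 fold change was 0.37 ± 0.15 (SE, adjusted p = 0.217). Tcp1, the alpha subunit after which the complex is named, was at 189.8, 237.9 and 198.1 CPM in the controls and at 262.2, 251.2 and 234.7 CPM under heat stress. Its groups overlapped only through control 2, and its log2 fold change was 0.26 ± 0.13 (adjusted p = 0.288).

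Cct2 was the single TRiC subunit whose brain groups did not overlap. It was at 151.0, 152.1 and 142.4 CPM in the controls and at 177.1, 162.4 and 155.4 CPM under heat stress, with a log2 fold change of 0.15 ± 0.11 (adjusted p = 0.441). That value was 0.0093 with the length and GC correction and 0.092 without heat stress 1. With Hspe1, 2 of 10 members had brain groups apart and higher under heat stress, where 12.9% of all genes did. Cct6a had a log2 fold change of 0.18 ± 0.12 (0.11 without control 1 and 0.27 without control 2). Cct3, Cct5, Cct7 and Cct8 lay between 0.01 and 0.10. For those 4 subunits the means differed by less than the larger SD of the groups, as for Cct7 with 199.5 ± 16.9 CPM under heat stress and 197.7 ± 13.4 CPM in controls (SD, n = 3).

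**Figure D2:**
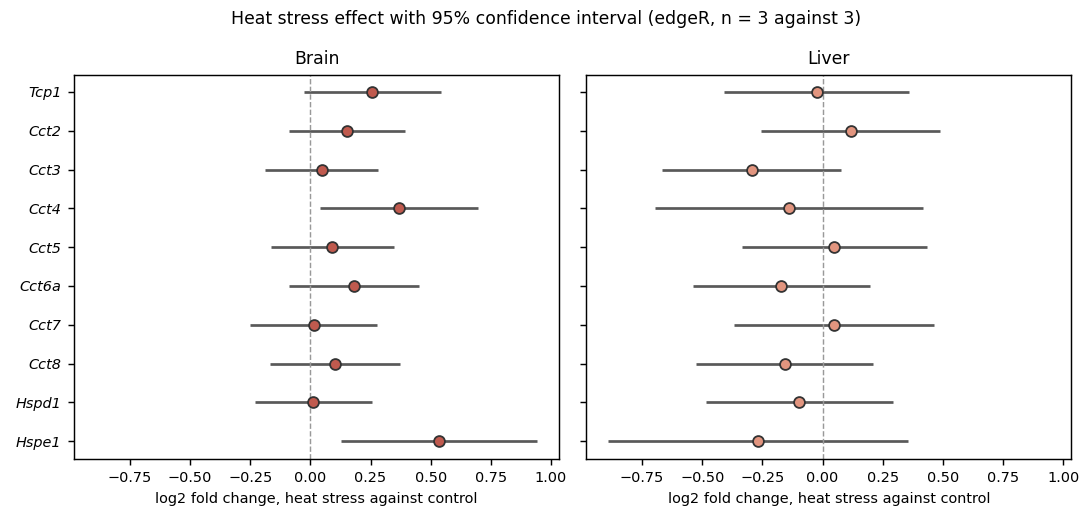
Points show the fitted log2 fold change of heat stress against control and lines its 95% interval, for each member in brain (left) and liver (right), 3 libraries against 3. The brain points all lie above 0 in this fit, without the length and GC correction, and the intervals of Cct4 and Hspe1 do not reach it, whereas every liver interval includes 0.

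In liver no member was called (0 of 10, edgeR, 12296 genes tested, background 0% called), no member had an unadjusted p under 0.05, and DESeq2 called none of them, where it called 61 of 17860 genes. The background at that unadjusted p was 2.97% higher and 2.87% lower. The log2 fold changes ran from -0.29 for Cct3 to 0.12 for Cct2, with a TRiC median of -0.08 against 0.01 for all genes, and 7 of 10 were below 0. The adjusted p-values were 0.926 or more. With the length and GC correction, 1 of 8 TRiC subunits was lower at an unadjusted p under 0.05, where 654 of 12296 genes were, and no member was called, where 19 genes were.

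Cct3 and Cct6a were the 2 of 10 members whose liver groups did not overlap, lower under heat stress, where 5.73% of all genes were apart in that direction. Cct3, the gamma subunit, was at 111.5, 99.2 and 87.9 CPM (scaled within liver) in the controls and at 79.1, 84.7 and 79.7 CPM under heat stress. Its log2 fold change was -0.29 ± 0.17 (95% interval -0.67 to 0.08). Cct6a, the zeta subunit, was at 137.6, 155.6 and 143.4 CPM in the controls and at 137.4, 122.2 and 128.2 CPM under heat stress, so that control 1 and heat stress 1 were almost equal.

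Hspd1 varied little in liver, and its groups overlapped. It was at 422.2, 454.2 and 487.2 CPM in the controls and at 441.9, 407.8 and 426.0 CPM under heat stress, and the interval of its log2 fold change was -0.49 to 0.29. Hspe1 spread far more, with 159.6, 289.4 and 255.3 CPM in the controls and 250.5, 137.7 and 196.9 CPM under heat stress. Its lowest libraries, control 1 and heat stress 2, are those with muscle transcripts, and Cct4 was lowest in the same libraries, at 95.1 and 102.3 CPM against 140.2 to 170.2 CPM in the other 4. Without that pair of libraries the log2 fold change of Hspe1 was -0.30 (adjusted p = 0.649), that of Cct4 was -0.23, that of Cct3 was -0.25 and that of Cct2 was 0.23, and no member was called. Single libraries also moved these values: with each left out in turn, the log2 fold change of Hspe1 ran from -0.51 (without heat stress 1) to -0.069 (without heat stress 2), that of Cct4 from -0.37 (without control 1) to 0.010 (without control 2), that of Cct2 from 0.055 (without heat stress 3) to 0.19 (without heat stress 2), and that of Hspd1 from -0.16 to -0.045. The columns of control 2, heat stress 1 and heat stress 3 carry the suffix 2nd, whose meaning is not given, and with that suffix as a term Hspe1 was at -0.48 and Cct4 at -0.29, neither called.

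Without the length and GC correction the heat stress effect was fitted above 0 in brain and mostly below 0 in liver, and the difference between the tissues was itself tested in a fit of all 12 libraries. No member was called (0 of 10 by edgeR and by DESeq2), where edgeR called 0.00632% of all 15824 genes and DESeq2 48 of 20509. The effect of liver minus that of brain was lowest for Hspe1, at -0.80 ± 0.35 on the log2 scale (95% interval -1.55 to -0.05, unadjusted p = 0.0376, adjusted p = 0.516). Hspe1 was the 1 member with an unadjusted p under 0.05, where 5.91% of all genes were lower. Cct4 followed at -0.50 ± 0.29, and 9 of 10 members were below 0, with a TRiC median of -0.28 against -0.04 for all genes. With the length and GC correction 6 of 10 were below 0, Cct4 was at -0.31 and the TRiC median was -0.16. Hspe1 was then at -0.57, with an unadjusted p still under 0.05, where 717 of 15824 genes were lower.

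The levels of Hspe1 and Cct4 were read against a property of whole libraries. In each library, the deviation of genes from their tissue's mean was fitted on transcript length and GC content, over the 13443 genes in brain and 10735 in liver with a known length and a mean log2 CPM above 1. The slope per doubling of length was 0.16, 0.02 and 0.09 (log2 units) in the brain controls and -0.08, -0.16 and -0.02 in the brain heat stress libraries, which do not overlap. The short Hspe1 transcript (774 bases, against 2423 for Hspd1) was highest in brain where the slope was lowest, in heat stress 2, and lowest where it was highest, in control 1. In liver the slope was highest in control 1 (0.11) and heat stress 2 (0.12), the libraries with the least Hspe1. The slope per 10 percentage points of GC content also separated the brain groups, at 0.23, -0.0062 and 0.093 in controls and -0.15, -0.15 and -0.027 under heat stress, and in liver it was highest in control 1 (0.29) and heat stress 2 (0.25). After a correction for length and GC content, the brain log2 fold change of Hspe1 was 0.24 (adjusted p = 0.432) and that of Cct4 was 0.25 (adjusted p = 0.455). The Cct4 transcript has 2484 bases and 45.1% GC, against 51.7% for Hspe1 and 46.8% for Hspd1. In brain the slopes separate the same libraries as heat stress does, so the 2 cannot be told apart there. Whether the slopes account for the levels of Hspe1 and Cct4 was not tested.

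**Figure D3:**
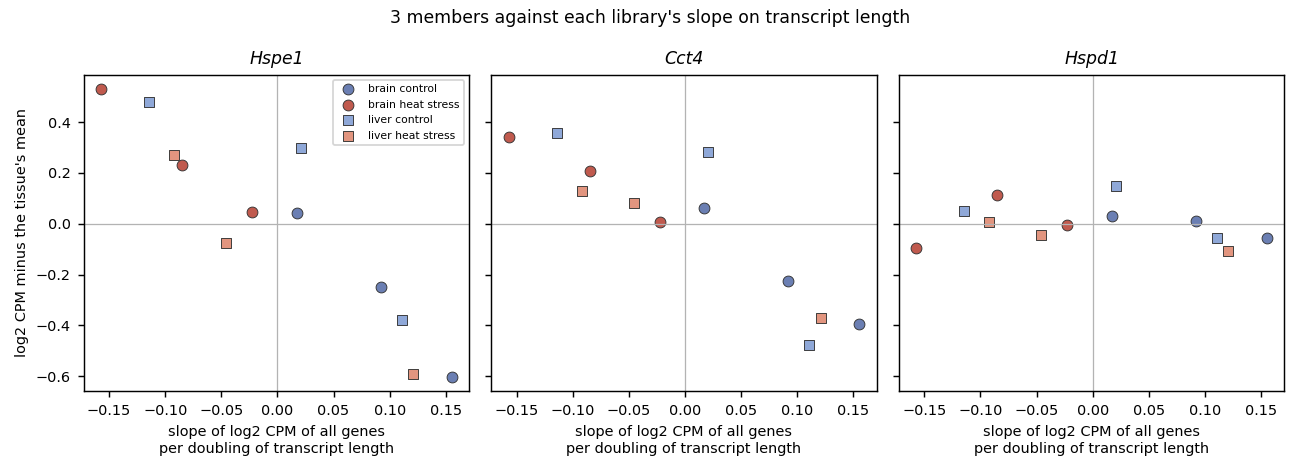
Each point is a library (circles, brain; squares, liver), with its slope of log2 CPM on transcript length across genes on the x axis and a member's log2 CPM minus the tissue's mean on the y axis. Hspe1 falls from 0.53 to -0.60 and Cct4 from 0.34 to -0.39 between the brain libraries with the lowest and the highest slope, and Hspd1 stays between -0.11 and 0.15 in all 12.

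A ratio within a library needs no scaling between libraries. The ratio of Hspe1 to Hspd1, both per kb of transcript, was 1.06, 1.56 and 1.29 in brain controls and 1.68, 2.39 and 1.61 in brain heat stress, so the groups did not overlap. The exact two-sided permutation p was 0.1, the smallest that 3 against 3 allows, and 0.2 after adjustment over 12 such tests. In liver the same ratio was 1.18, 1.99 and 1.64 in controls and 1.77, 1.06 and 1.45 under heat stress, which interleave (exact permutation p = 0.6). The ratio is exposed to the length slopes given above, since its 2 transcripts differ in length.

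Hspd1 and Hspe1 differed more between brain and liver than between heat stress and control. For the TRiC subunits this did not hold under every setting. With the length and GC correction, Cct3 was at 0.0049 between the control tissues and at -0.32 under heat stress in liver (log2 scale). In the control groups, 9 of the 10 members were called lower in brain than in liver (edgeR, TMM), where 36.1% of all 15824 genes were called lower and 44.2% higher. Cct7 was not called, at a log2 fold change of -0.10 (95% interval -0.48 to 0.28, adjusted p = 0.614). By size the mitochondrial pair led under TMM: Hspd1 was 5.90-fold and Hspe1 7.22-fold higher in liver, and the called TRiC subunits were 1.37-fold (Tcp1) to 2.47-fold (Cct4) higher in liver. Cct4, Hspd1 and Hspe1 were the 3 members that also had a log2 fold change under -1, where 27.5% of all genes did, and Hspd1 and Hspe1 were the 2 under -2, where 16.3% did. Neither count holds with library size alone or with the length and GC correction, under which Hspe1 (-0.89) is above -1 and closer to 0 than Hspd1 (-1.83). The brain and liver control libraries of the 9 called members did not overlap, as for 36.5% of all genes in that direction.

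Hspd1, scaled over all 12 libraries, was at 109.5, 115.2 and 115.4 CPM in brain controls and at 673.9, 638.1 and 694.7 CPM in liver controls. The tissues lie far apart, with a log2 fold change of -2.56 ± 0.15 (SE, adjusted p = 2.8e-09). Hspe1 was at 36.9, 57.5 and 47.6 CPM in brain controls and at 254.7, 406.6 and 364.1 CPM in liver controls. Every liver library was above every brain library, with a log2 fold change of -2.85 ± 0.26 (adjusted p = 2.1e-07). The heat stress libraries kept this order, with Hspd1 at 105.7 to 122.1 CPM in brain against 609.3 to 634.3 CPM in liver.

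The direction for the TRiC subunits depended on the scaling, and that for the mitochondrial pair did not. TMM raises the effective size of brain libraries (factors 1.41 to 1.51) and lowers that of liver libraries (0.622 to 0.722), and it puts the median gene at 0.24, against 1.33 with library size alone. With library size alone, Tcp1 (0.64), Cct2 (0.59) and Cct7 (1.00) were called higher in brain. Cct3, Cct5, Cct6a and Cct8 lay between 0.13 and 0.21 and Cct4 at -0.24, none of them called. Under that scaling 65.0% of all genes were called higher and 19.8% lower. The TRiC median of 0.20 is then still below the median gene. Hspd1 (-1.48) and Hspe1 (-1.79) were called lower in brain under that scaling too. With TMM and the correction for length and GC content, Cct2 was called higher in brain (0.64). Cct4 (-0.45), Cct6a (-0.28), Hspd1 (-1.83) and Hspe1 (-0.89) were called lower, and the other 5 were not called. Of all genes, 44.4% were then called higher and 39.0% lower. In this fit the correction uses deviations from the mean of all 12 libraries, not of each tissue. It also removes differences between the tissues that follow length or GC content. With a replicate block added to that correction, 3 members were called (Cct2, Hspd1 and Hspe1), and Cct4 and Cct6a no longer were.

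**Figure D4:**
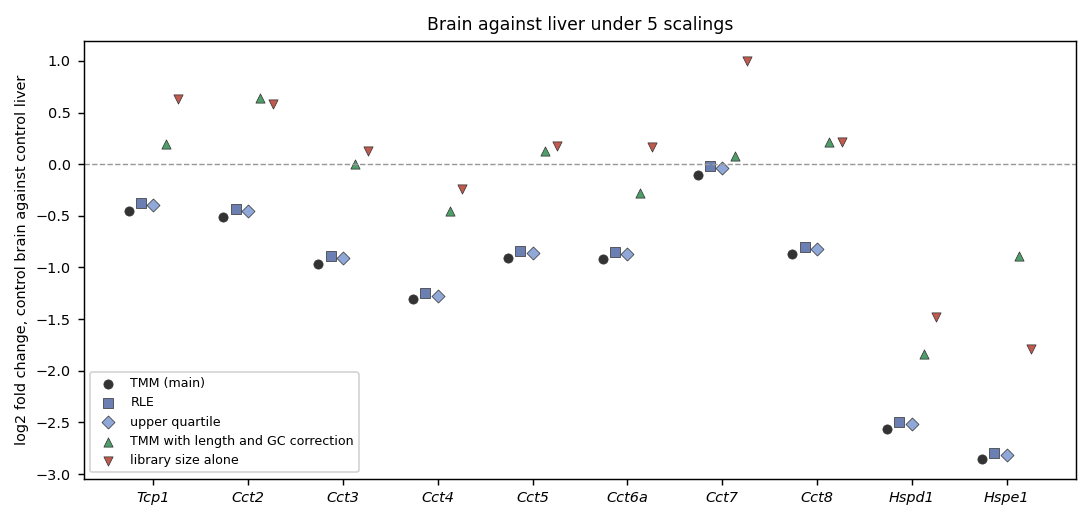
For each member, the log2 fold change of control brain against control liver is drawn under 5 scalings, with the dashed line at 0. Hspd1 and Hspe1 lie below 0 under all 5, from -0.89 to -2.85, whereas 7 of the 8 TRiC subunits lie above 0 with library size alone.

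Within libraries, where no scaling enters, the mitochondrial ring also stood higher over TRiC in liver. Hspd1 per kb divided by the geometric mean of the 8 TRiC subunits per kb was 0.980, 0.895 and 0.998 in brain controls and 3.17, 3.31 and 3.64 in liver controls. Every liver value exceeded 3 times every brain value (exact two-sided permutation p = 0.1, adjusted 0.2). That p is the smallest that 3 against 3 allows, in a test that takes the libraries as unpaired. Heat stress left the ratio at 0.813 to 0.910 in brain, against 0.895 to 0.998 in controls, and at 3.17 to 3.37 in liver. Hspe1 per kb over the same mean was 1.03 to 1.40 in brain controls and 3.75 to 6.59 in liver controls. Under heat stress it was 1.46 to 1.94 in brain and 3.56 to 5.99 in liver. This ratio is also exposed to the length slopes. With the length and GC correction, Hspe1 in control brain against control liver was at -0.89 on the log2 scale, against -2.85 without it. That correction also removes tissue differences that follow length or GC content, which cannot be told apart from a property of the libraries.

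The levels of the members could be ordered only per length of transcript. The length used is that of the principal transcript, 774 bases for Hspe1 and 2423 for Hspd1. All exons of the gene joined span 1474 and 2642 bases. The order of the members and the levels of the ratios per kb depend on that choice. The comparison of a ratio between groups does not. In brain controls the CPM per kb ran from 62.4 ± 3.71 for Cct5 and 61.2 ± 13.3 for Hspe1 down to 33.7 ± 5.30 for Cct4 (SD, n = 3). Most neighbours in that order overlapped, with gaps only between Cct2 and Hspd1 and between Cct6a and Cct3. In liver controls Hspe1 led with 441.6 ± 101.2 CPM per kb, followed by Hspd1 with 276.1 ± 11.8, Cct5 with 117.4 ± 11.4 and Cct8 with 97.8 ± 3.38, each clear of the next. The other 6 TRiC subunits overlapped their neighbours, down to Cct7 with 59.3 ± 14.8 CPM per kb.

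Without the length and GC correction, the 8 TRiC subunits did not hold the same shares in the tissues. Each ring takes a single copy of each protein. Of the summed TRiC level per kb, Cct7 made up 11.9% to 14.6% in the 6 brain libraries and 7.48% to 10.7% in the 6 liver libraries. Tcp1 made up 14.1% to 16.0% in brain and 11.2% to 12.7% in liver. Cct5 was the reverse, with 14.9% to 16.3% in brain and 16.6% to 20.0% in liver. The shares of those 3 subunits did not overlap between tissues, and those of the other 5 did. These contrasts were not seen with the length and GC correction, which also removes tissue differences that follow length or GC content. Control brain against control liver was then 0.080 for Cct7, 0.20 for Tcp1 and 0.13 for Cct5 on the log2 scale. The TRiC median was 0.11, and Cct2 (0.64) and Cct4 (-0.45) lay farther from it. Exons of Tcp1, Cct6a, Cct7 and Cct8 overlap those of neighbouring genes (Mrpl18 and Acat3, Psph, Pradc1 and Usp16), and whether strand was used in counting is not given in the sources used here, so their levels may hold reads of the neighbour or lack shared reads.

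**Figure D5:**
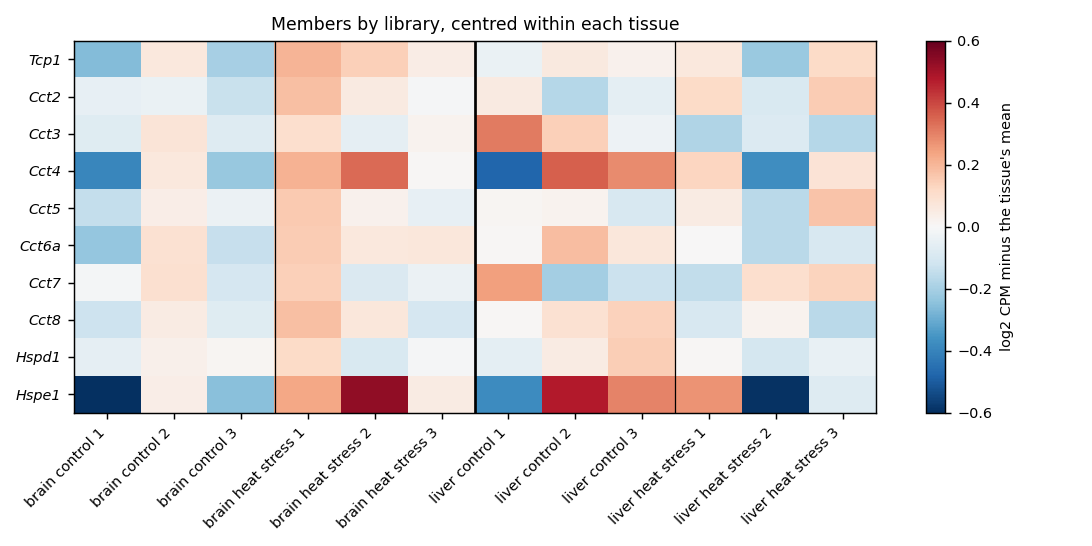
Colours show each member's log2 CPM minus its tissue's mean, for the 12 libraries in columns (vertical lines separate the groups). Hspe1 and Cct4 share their lowest libraries, brain control 1 and the liver libraries with muscle transcripts, and the rows of Hspd1, Cct5 and Cct2 are pale throughout.

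Across the 12 libraries, the subunits followed their common mean to different degrees. Each profile was centred within its tissue and compared with the mean of the 8 subunits, whose own root mean square was 0.09 log2 units. Cct6a, Tcp1 and Cct5 lay closest to it, with a root mean square difference of 0.06 to 0.07, and Cct4 lay farthest of the 8, at 0.23. Hspd1 was at 0.08 and Hspe1 at 0.31. Among 11163 other genes with at least that much variation, the 10 closest were Naa35 (0.04), Rchy1, Tprgl, Slc25a17, Sdc2, Dnajb6, Chtop, Sar1a, Rab2a and Mapre1 (0.07). Ranked among those genes, Cct6a would stand at place 9, Tcp1 at 11, Cct5 at 14, Cct8 at 66 and Cct2 at 134. Cct3 would stand at place 619, Cct7 at 1376 and Cct4 at 4619. Some genes outside the complex, the closest picked from all 11163, thus lay nearer its mean than some of its subunits did. The mean includes the subunits themselves.

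The partners of TRiC were read from lists by their counts and medians. In brain, prefoldin and its relatives had 7 of 9 genes higher under heat stress at an unadjusted p under 0.05. The share of all genes was 10.0%, and 0 of 9 were called. The median log2 fold change was 0.46. Pfdn4 was at 24.4 ± 7.41 CPM in controls and 48.6 ± 14.0 CPM under heat stress (log2 fold change 1.00 ± 0.26, SE, adjusted p = 0.170). Pfdn1, Pfdn2 and Vbp1, further subunits of the prefoldin hexamer, had values of 0.57, 0.46 and 0.50, and their groups did not overlap. With the correction for length and GC content, 5 of 9 had an unadjusted p under 0.05 and were higher, against 6.34% of all genes, and the median was 0.22. In liver the median of the same list was 0.01 and no gene had an unadjusted p under 0.05. With the length and GC correction 1 of 9 was lower in liver at that p, where 654 of 12296 genes were.

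Other partners had smaller counts. Of the 3 phosducin-like and thioredoxin-like cofactors, Pdcl3 (0.44) and Txndc9 (0.33) were higher in brain at an unadjusted p under 0.05, where 10.0% of all genes were, and in liver none was. With the length and GC correction 1 of 3 was higher in brain, where 6.34% of all genes were, and 0 of 3 in liver. Of the 7 tubulin folding cofactors, which take tubulin on from TRiC, Tbca had a brain log2 fold change of 0.77 ± 0.22 (adjusted p = 0.170), with 56.6 ± 16.1 CPM in controls and 96.8 ± 20.1 CPM under heat stress. Its transcript is 559 bases long, the shortest of that list. The other 6 had unadjusted p-values of 0.0534 or more, and with the length and GC correction 0 of 7 had one under 0.05.

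Among clients of TRiC, actins and tubulins in liver were lower at a low p more often than all genes. Without the length and GC correction, the brain counts of clients lay near the share of all genes. Of 14 actins and tubulins, 2 were lower in brain at an unadjusted p under 0.05 (Tubb4a at -0.57 and Tubg1 at -0.35, against 10.0% of all genes lower), and 4 with the length and GC correction, where 799 of 14806 genes were lower. In liver 4 of 11 tested were lower, against 2.87% of all genes, and none was called. With the length and GC correction 5 of 11 were lower at that p, where 654 of all 12296 genes were, and 1 was called, where 12 of all genes were called lower. Tuba1c, an alpha-tubulin, was at 97.2 ± 23.6 CPM in liver controls and 50.7 ± 1.69 CPM under heat stress (log2 fold change -0.94 ± 0.21, adjusted p = 0.366). Tubb2a (-1.08), Tubb4b (-0.65) and Tubb6 (-0.58) were the others. These tubulin genes are close in sequence, so reads may be split between copies. Of 12 WD40 proteins and other clients, 1 was lower (Rptor at -0.52) and 1 higher (Gnb4 at 0.62) in brain at an unadjusted p under 0.05, near the 10.0% of all genes in each direction. In liver 1 of 11 tested was lower (Vhl at -0.61), against 2.87% of all genes. With the length and GC correction, 2 of these 12 were higher and 0 lower in brain at that p, where 6.34% of all genes were higher. In liver 2 of 11 were then lower and 0 higher.

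Heat shock factors and their known targets were read beside the mitochondrial pair. Of 12 listed, 0 of 12 in brain and 0 of 11 tested in liver were higher at an unadjusted p under 0.05. In each tissue 4 were lower, with list medians of -0.27 and -0.28 and none called, where 10.0% of all genes in brain and 2.87% in liver were lower at that p. In liver, 2 of 11 were called lower with the length and GC correction and 1 with no normalization factor, where 12 and 2 of all 12296 genes were called lower. In liver, Hsph1, a cytosolic nucleotide exchange factor, was at 42.9 ± 5.44 CPM in controls and 16.5 ± 2.15 CPM under heat stress (log2 fold change -1.37 ± 0.18, adjusted p = 0.0678), and Hsp90aa1, the inducible Hsp90, had a log2 fold change of -1.56 ± 0.23 (adjusted p = 0.107). Hspd1 and Hspe1 in the same liver libraries had -0.10 ± 0.17 and -0.27 ± 0.28, with the ranges over left-out libraries given above. In brain, Hspa1a, the inducible Hsp70, was at 6.11 ± 1.88 CPM in controls and 3.40 ± 0.19 CPM under heat stress (adjusted p = 0.171).

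Mitochondrial partners of Hspd1 were also lower in brain than in liver. Of 9 import and folding genes, 8 were called lower in control brain than in control liver, with a median of -1.79, where 36.1% of all genes were. With library size alone 5 of 9 were called lower and 1 higher, with a median of -0.70, where 19.8% of all genes were lower. Hspa9, the matrix Hsp70, was at 150.2 ± 7.46 CPM in brain and 754.0 ± 95.9 CPM in liver (log2 fold change -2.33 ± 0.18, adjusted p = 3.7e-08). Grpel1, its nucleotide exchange factor, had -2.68 ± 0.18. Of 8 mitochondrial proteases, 6 were called lower in brain, led by Clpx (-2.80), the unfolding subunit of the ClpXP protease, against the same 36.1%. With library size alone 3 of 8 were called lower and 2 higher, with a median of -0.02. Under heat stress, 2 of the 9 import and folding genes had an unadjusted p under 0.05 in brain, both higher (Grpel1 at 0.33 and Pam16 at 0.37), where 10.0% of all genes were, and 1 of 9 with the length and GC correction, where 6.34% were. At the same p none had in liver, and none of the proteases had in either tissue. Of the relatives of the TRiC genes, Cct6b had 1 to 5 reads in each brain library and 6 to 22 in each liver library, and Cct8l1 had 0 or 1 in each library.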

How the data were processed

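Messenger RNA of brain and liver was sequenced in 12 libraries of 10466198 to 15609040 assigned reads. The deposited counts are whole reads per gene symbol. The authors' methods describe them both as Trimmomatic, HISAT2 on mm10 and featureCounts and as Tophat2 and HTSeq. The libraries were made with a stranded protocol. Annotation release and the use of strand in counting are not given in the sources used here. The authors' tables of fold changes and p-values were not used, and 0 columns of single libraries were left out.

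The members and lists were chosen with earlier results of these data known. Heat stress was tested within each tissue with edgeR 4.0.16 in R 4.3.3 (quasi-likelihood test, robust, TMM, filterByExpr with a minimum count of 10 and total of 15, Benjamini-Hochberg over all genes tested), and the control tissues and the difference of effects in a fit of 4 groups. All 10 members passed the filter. A call is an adjusted p under 0.05. CPM within a heat comparison are scaled by TMM within the tissue, those between tissues over all 12 libraries. Each standard error (SE) was obtained by dividing the size of the fitted change by the square root of its F statistic. Lengths and GC content are those of the principal transcript in GENCODE M21. The correction for them was fitted on deviations from the mean of the libraries in each fit. From the lists, at most 4 genes a comparison (lowest unadjusted p) were named. Genes most like TRiC were the 10 with the smallest root mean square difference from its centred mean (log2 CPM with a pseudocount of 0.5).

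Scripts were tested on simulated counts. Alternatives were RLE and upper quartile scaling, no factor, DESeq2 1.42.0, no filter, a minimum count of 50, a block, a length and GC correction (spline of 5 degrees of freedom), the suffix 2nd of 3 liver columns as a term, and leaving out libraries. Same-numbered controls of brain and liver deviated together (r = 0.35, 0.34 and 0.11), and same-numbered heat stress libraries did not (r = 0.05, -0.20 and 0.04). Brain and liver controls of unlike numbers had r from -0.36 to 0.03. The labels do not say that a number is a mouse. The number was taken as a pairing for the control comparison only. Blocking on it (chosen after seeing the data) left 9 members called. Heat stress and control are different mice. P-values of the heat comparisons rest on 3 mice a group.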

Additional observations from a re-analysis of the deposited data

How the results depend on the processing

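No member was called for heat stress in brain, in liver or for their difference under any alternative. Between the control tissues, 9 members were called under RLE, upper quartile, DESeq2, both filters and each left-out library, 5 with no normalization factor, 5 with the length and GC correction, 3 with that correction and a replicate block, and 3 with a log2 fold change past 1. The replicate block alone changed no call. Heat and control libraries of a number did not deviate together (r = -0.29, 0.19 and -0.20 in brain, -0.58, -0.51 and -0.09 in liver).

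Some signs changed. Between the control tissues this includes called values, with Tcp1 and Cct2 called lower in the fit reported and Cct2 called higher under each of the settings named next, and Tcp1 with no factor. For control brain against liver, the values with no factor, with the length and GC correction, and with that and the block were 0.64, 0.20 and 0.19 for Tcp1, 0.59, 0.64 and 0.65 for Cct2, 0.13, 0.0049 and 0.0088 for Cct3, 0.18, 0.13 and 0.13 for Cct5, 1.00, 0.080 and 0.079 for Cct7, and 0.21, 0.22 and 0.22 for Cct8. Cct6a had 0.16 with no factor. Cct7 had 0.12 without the muscle libraries, and -0.21 to 0.12 with each library left out.

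In brain, the correction without and with the block gave -0.029 and -0.031 for Cct3, -0.097 and -0.099 for Cct8, and -0.062 and -0.064 for Hspd1. No filter gave -0.00063 for Cct7 and -0.0024 for Hspd1. Leaving out libraries gave -0.064 to 0.060 for Cct7 and -0.052 to 0.059 for Hspd1. In liver, the correction without and with the block gave -0.00093 and -0.0047 for Cct5 and -0.044 and -0.044 for Cct7. Cct5 had -0.014 with the column suffix as a term, and Tcp1 had 0.032 without the muscle libraries. Leaving out libraries gave -0.10 to 0.073 for Tcp1, -0.37 to 0.010 for Cct4, -0.045 to 0.13 for Cct5 and -0.040 to 0.19 for Cct7.

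For the heat effect of liver minus that of brain, the correction without and with the block gave 0.12 and 0.12 for Cct2, 0.0039 and 0.00035 for Cct5, -0.11 and -0.11 for Cct7, 0.037 and 0.032 for Cct8, and 0.0023 and 0.0064 for Hspd1. No filter gave 0.0035 for Cct2, no factor gave -0.0037 for Cct7, and the fit without the muscle libraries gave 0.12 for Cct2 and 0.086 for Cct5. Leaving out libraries gave -0.14 to 0.065 for Cct2, -0.13 to 0.048 for Cct5 and -0.11 to 0.23 for Cct7. The cause of these changes was not tested. Members had at least 787 reads in each library, and counting error was not separated from the spread between libraries.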
